A study of Mus musculus with 9 samples.

Results

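Tight junctions seal neighbouring epithelial cells together, and the genes that build them were followed here across 3 states of mouse epiblast-like cells (EpiLCs), cultured cells that resemble the early post-implantation epiblast. The 9 genes described were chosen by symbol: the claudins Cldn3, Cldn4, Cldn5, Cldn6, Cldn7 and Cldn9, occludin (Ocln), the junctional adhesion molecule F11r and the scaffold Tjp1, out of 23453 gene symbols in the table. EpiLCs were made from embryonic stem cells over 48 h in N2B27 medium with 1% KSR (a serum replacement), FGF2 and Activin A. They were harvested (EpiLC) or kept for a further 24 h, either without the added factors (aEpiLC) or with Activin (20 ng/ml) together with 3 µM CHIR99021, which activates Wnt/β-catenin signalling (pEpiLC). The label of aEpiLC gives N2B27 alone, and the study's methods add 1% KSR to the medium of both later states. All 9 libraries are bulk RNA-seq of mouse cells, 3 per state, and the study calls its aEpiLCs and pEpiLCs wild type. The labels name no cell line or batch for these libraries. Nothing states that the 3 libraries of a state came from separate cultures, so the p-values measure the spread between these samples only.

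Claudins are membrane proteins whose extracellular loops line up into the strands of the tight junction, and the mix of claudins sets which ions and solutes pass between cells. Occludin and junctional adhesion molecules sit in the same membrane, and scaffold proteins such as that of Tjp1 tie them to actin. The epiblast is an epithelium, and during gastrulation the cells that leave through the primitive streak lose their junctions, a step in which the repressors Snai1 and Zeb2 are known to act on epithelial genes through a form of the E-box, the short DNA motif CAGGTG.

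The total expected count lay between 20560564 and 23417917 per library. Levels are given as CPM, counts relative to library size, scaled by TMM, a method that allows for library composition, and the 3 counts taken as a detection limit came to 0.131 to 0.144 CPM. All 9 genes were above that limit in every library and were tested in every comparison. The library of pEpiLC replicate 1 stood apart: among 10732 genes with a mean of at least 5 CPM it lay below both other pEpiLC libraries by more than 1.5 times in 625, which is 5.82%, and above both by as much in 477, while each of the other 8 libraries stood alone at the low end of its own state in 15 to 46 genes. Of the 7 tight junction members with a mean of at least 5 CPM, 4 were among those 625 genes, namely Cldn3, Cldn6, Cldn7 and Ocln. Results of the members that rest on this library are therefore given with and without it. In bulk samples, fewer cells that make an RNA and less of it per cell cannot be told apart.

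**Figure D1:**
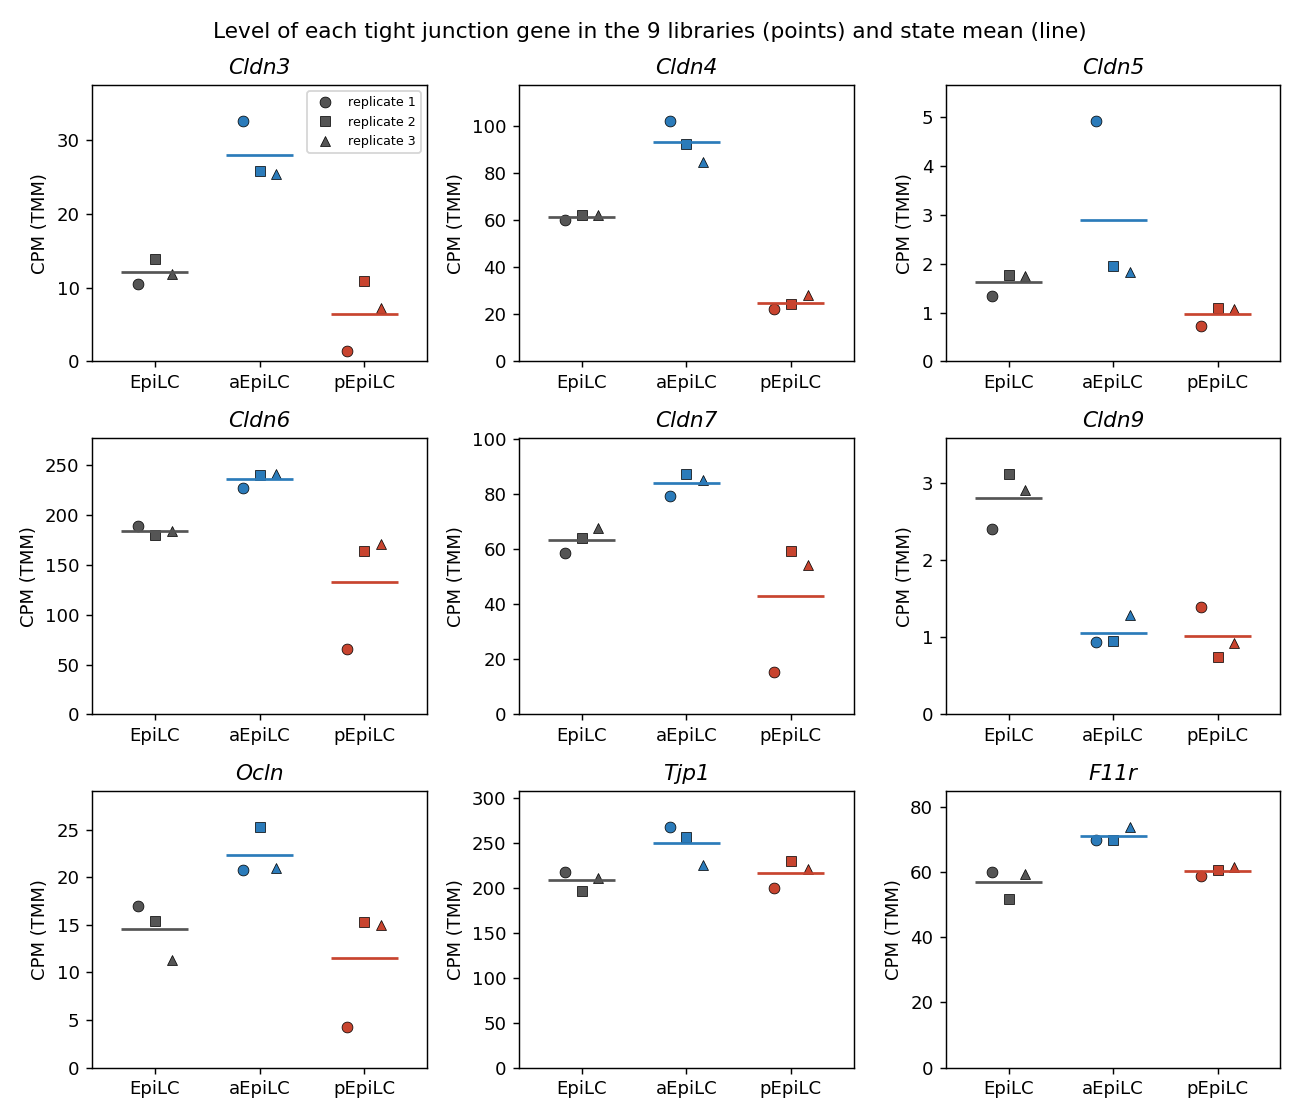
Level of each of the 9 genes (TMM-normalized CPM, linear axes from 0) in the 3 EpiLC, aEpiLC and pEpiLC libraries, with points for libraries, symbols for replicate numbers and lines for state means. Cldn4, Cldn5 and Cldn6 separate the 3 states without overlap, and pEpiLC replicate 1 (circle) lies far below the other 2 pEpiLC libraries for Cldn3, Cldn6, Cldn7 and Ocln.

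In pEpiLC, all 9 genes had a lower fitted level than in aEpiLC, Cldn9 by only 0.06 on the log2 scale. The 2 that passed the test were the neighbouring genes Cldn3 and Cldn4, with 4.34-fold and 3.77-fold lower levels. A call required a Benjamini-Hochberg adjusted p below 0.05 over all genes, by the quasi-likelihood test of edgeR fitted to the 6 libraries compared, and a log2 fold change of at least 1 in size. In this comparison 7.29% of 15198 genes were called, 4.74% of all genes as lower, against 2 of the 9 members. With the p limit alone, F11r was added to make 3 members, where 15.6% of all genes passed. The libraries of pEpiLC and aEpiLC did not overlap for 7 of the 9 members, all but Cldn9 and Tjp1, where 39.0% of all genes did not overlap in either direction. The median log2 fold change was -0.97 over the 9 members and 0.01 over all genes. Without pEpiLC replicate 1, 3 members were called, Cldn3, Cldn4 and Cldn5, beside 7.41% of all genes in either direction. In that fit 7 members passed the p limit alone. The share of all genes at that limit was not counted there, so the 7 cannot be set against it. The members' median moved to -0.57. Without pEpiLC replicate 3 or any of the aEpiLC replicates, Cldn4 was the 1 member called.

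In aEpiLC against EpiLC the order was the opposite for most members. Cldn3 rose 2.29-fold and Cldn9 fell 2.68-fold, and these 2 of 9 were called, beside 12.5% of 15301 genes called in all, 7.25% higher and 5.24% lower. A further 6 members, Cldn4, Cldn6, Cldn7, Ocln, Tjp1 and F11r, were higher with an adjusted p below 0.05 but with a log2 fold change between 0.25 and 0.60, below the limit. The p limit alone was passed by 46.6% of all genes in this comparison. All 9 members had libraries that did not overlap between the states, where 56.1% of all genes did not overlap. The median was 0.39 for the members and 0.00 for all genes.

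In pEpiLC against EpiLC, Cldn4 fell 2.48-fold and Cldn9 fell 2.76-fold, and these were the 2 members called, beside 15.8% of 15288 genes in all and 8.13% called lower. They were also the only members past the p limit alone, which 44.2% of all genes passed. The libraries did not overlap for 4 members, Cldn4, Cldn5, Cldn6 and Cldn9, all lower in pEpiLC, where 58.6% of all genes did not overlap. Cldn3, Cldn5, Cldn6, Cldn7 and Ocln had log2 fold changes between -0.90 and -0.34, and Tjp1 and F11r had 0.05 and 0.08, all 7 with adjusted p-values above 0.05. The median was -0.57 for the members and 0.02 for all genes, and without pEpiLC replicate 1 the members' median was -0.17 with the same 2 calls, beside 15.4% of all genes. The 3 comparisons share libraries in pairs, so their values are set side by side and are not independent of each other.

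**Figure D2:**
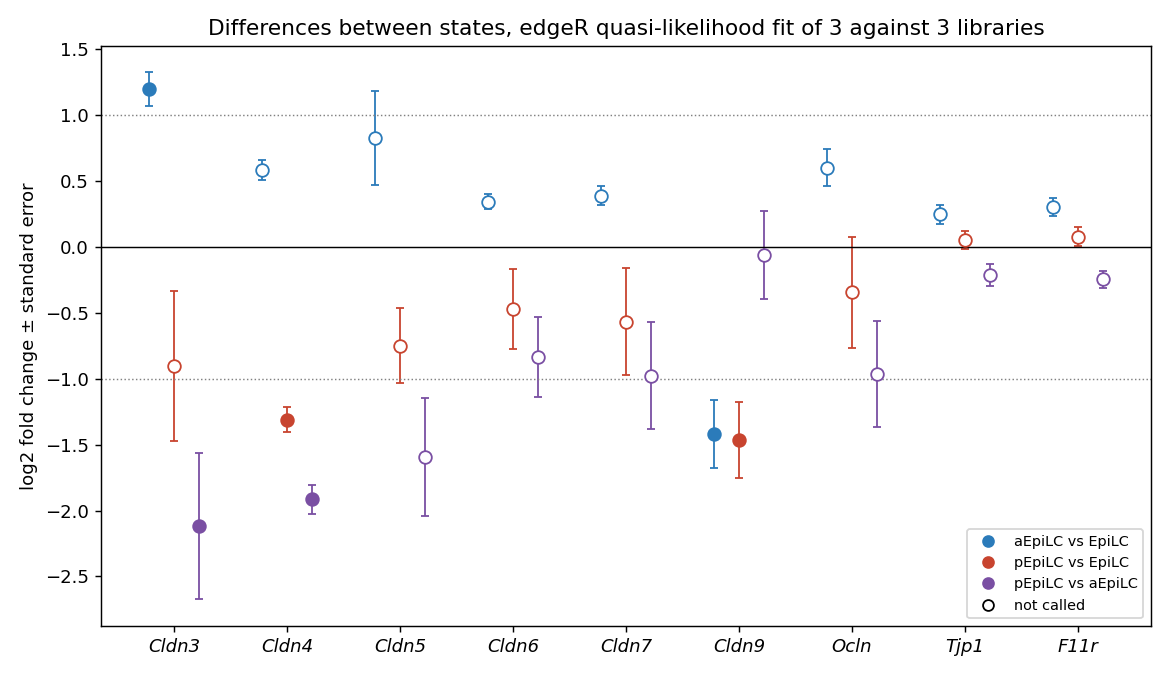
Log2 fold change with its standard error (edgeR, 3 against 3 libraries) for the 9 genes in 3 comparisons, filled where called and open where not, with dotted lines at the fold limit. Cldn3 and Cldn4 lie lowest in pEpiLC against aEpiLC, and Cldn9 is low in both later states against EpiLC.

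Among the 9 members, Cldn4 had the smallest standard error for its size of change in pEpiLC against both other states. It encodes a claudin of simple epithelia that, with that of Cldn3, is a receptor for the enterotoxin of Clostridium perfringens. The gene (ENSMUSG00000047501) has a single exon on the minus strand at chr5:134945119-134946934 of GRCm38. Its level was 60.1, 62.5 and 62.1 CPM in EpiLC replicates 1, 2 and 3, 102, 92.6 and 84.7 CPM in aEpiLC and 22.3, 24.3 and 28.0 CPM in pEpiLC. The 9 libraries fell into 3 ranges without overlap, highest in aEpiLC and lowest in pEpiLC. The log2 fold change was -1.91 (SE 0.11, adjusted p = 0.000119, edgeR) in pEpiLC against aEpiLC and -1.31 (SE 0.09, adjusted p = 0.000123) against EpiLC. In aEpiLC against EpiLC it was 0.58 (SE 0.07, adjusted p = 2.74e-05), below the fold limit. Among the 6 member claudins, Cldn4 was also the closest to its partners in pEpiLC replicate 1, at 85.2% of their mean, and without that library the fold changes against aEpiLC and EpiLC were -1.84 and -1.24.

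Cldn3 (ENSMUSG00000070473), the other enterotoxin receptor and a sealing claudin, lies 39279 bases from Cldn4 on the opposite strand, as a single exon at chr5:134986214-134987472. It was measured at 10.5, 14.0 and 11.9 CPM in EpiLC, 32.6, 25.8 and 25.5 CPM in aEpiLC and 1.34, 10.9 and 7.22 CPM in pEpiLC. Every aEpiLC library lay above every other library, and pEpiLC and EpiLC overlapped. The level in pEpiLC replicate 1 came from 28 counts and was 14.8% of the mean of the other 2 pEpiLC libraries. The log2 fold change was 1.19 (SE 0.13, adjusted p = 7.54e-06, edgeR) in aEpiLC against EpiLC, a call that a joint fit of all 9 libraries did not keep (1.19, SE 0.46, adjusted p = 0.0650). In pEpiLC it was -2.12 (SE 0.56, adjusted p = 0.0404) against aEpiLC and -0.90 (SE 0.57, adjusted p = 0.228) against EpiLC. Without pEpiLC replicate 1 the difference from aEpiLC was smaller but more even, -1.63 (SE 0.18, adjusted p = 4.65e-05), and that from EpiLC was -0.42 (adjusted p = 0.0556). The call against aEpiLC was lost without pEpiLC replicate 3 (adjusted p = 0.0887, edgeR) and without aEpiLC replicates 1, 2 or 3 (0.131, 0.117 and 0.114), at log2 fold changes between -2.19 and -1.99. The exon overlaps 40 bases of the antisense gene Wbscr25, whose level was at most 0.657 CPM in these libraries.

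Cldn6 and Cldn7 were alike in their course over the libraries, and in both a single pEpiLC library lay far below the rest. Cldn6 (ENSMUSG00000023906, plus strand, chr17:23679249-23682446) encodes a claudin of embryonic epithelia and pluripotent cells that is largely silent in adult tissue. It was the most abundant claudin here, at 189, 180 and 184 CPM in EpiLC, 227, 240 and 241 CPM in aEpiLC and 65.7, 164 and 171 CPM in pEpiLC. Each aEpiLC library was above each EpiLC library, and each pEpiLC library was below both, with pEpiLC replicate 1 at 39.3% of the mean of its partners. Cldn6 differed by a log2 fold change of 0.34 (SE 0.06, adjusted p = 0.000247, edgeR) in aEpiLC against EpiLC and of -0.84 (SE 0.31, adjusted p = 0.109) in pEpiLC against aEpiLC. Without pEpiLC replicate 1 the last value was -0.50 (SE 0.07, adjusted p = 0.000215), past the p limit and below the fold limit. Against EpiLC, Cldn6 in pEpiLC was at -0.47 (adjusted p = 0.241) with all libraries and at -0.14 (adjusted p = 0.0324) without replicate 1.

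Cldn7 (ENSMUSG00000018569, plus strand, chr11:69964779-69967885), whose claudin is found along the lateral membrane as well as in the junction, stood at 58.7, 63.9 and 67.4 CPM in EpiLC, 79.1, 87.1 and 85.1 CPM in aEpiLC and 15.5, 59.2 and 54.1 CPM in pEpiLC. The aEpiLC libraries were again the highest, and pEpiLC replicate 1 was at 27.3% of its partners. The log2 fold change was 0.39 (SE 0.07, adjusted p = 0.000539, edgeR) in aEpiLC against EpiLC and -0.98 (SE 0.41, adjusted p = 0.150) in pEpiLC against aEpiLC, or -0.57 (SE 0.08, adjusted p = 0.000279) without that library. Against EpiLC, Cldn7 in pEpiLC was at -0.57 (adjusted p = 0.292, edgeR) with all libraries and at -0.17 (adjusted p = 0.0729) without replicate 1. Pearson's r between Cldn6 and Cldn7 over the 9 libraries was 0.992 on log2 CPM. This is a description only, since the libraries share 3 states and the low levels of pEpiLC replicate 1.

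Cldn9 showed a pattern of its own, lower in both later states. It codes for a claudin best known from the inner ear, and its gene (ENSMUSG00000066720, a single exon on the minus strand, chr17:23682584-23684026) ends 137 bases from the end of Cldn6 with the pair pointing toward each other. Cldn9 was measured at 2.40, 3.12 and 2.92 CPM in EpiLC, 0.938, 0.950 and 1.29 CPM in aEpiLC and 1.39, 0.745 and 0.931 CPM in pEpiLC, from 17 to 67 counts per library. All 6 libraries of the later states lay below the 3 of EpiLC, and the later states overlapped. The log2 fold change was -1.42 (SE 0.26, adjusted p = 0.000514, edgeR) in aEpiLC and -1.46 (SE 0.29, adjusted p = 0.00594) in pEpiLC against EpiLC. Between the later states it was -0.06, with an interval of 2 standard errors from -0.73 to 0.61, and its sign turned to 0.13 without pEpiLC replicate 2 and to 0.10 without aEpiLC replicate 3. Its neighbour Cldn6 was higher in aEpiLC than in EpiLC, where Cldn9 was lower, and r between the pair over the 9 libraries was -0.052.

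Cldn5 (ENSMUSG00000041378, single exon, plus strand, chr16:18776847-18778262), the main claudin of endothelial barriers, was the lowest of the 6 member claudins per kilobase in EpiLC. It had 1.34, 1.77 and 1.74 CPM in EpiLC, 4.92, 1.94 and 1.84 CPM in aEpiLC and 0.718, 1.10 and 1.07 CPM in pEpiLC, from 15 to 105 counts. The states did not overlap, and aEpiLC replicate 1 was well above the other 2 aEpiLC libraries. In pEpiLC against aEpiLC the log2 fold change was -1.60 (SE 0.45, adjusted p = 0.0500311, edgeR), just outside the limit. Without pEpiLC replicate 1 it was -1.42 (adjusted p = 0.0427), a call, and without aEpiLC replicate 1 it was -0.98 (adjusted p = 0.122). In aEpiLC against EpiLC it was 0.82 (SE 0.36, adjusted p = 0.0737), and without aEpiLC replicate 1 it was 0.22 (adjusted p = 0.566). Without aEpiLC replicate 2 or 3 it was 1.05 (adjusted p = 0.0355) or 1.07 (adjusted p = 0.0225), both calls. Summed over 7 endothelial marker genes in the table, of a list of 8, the level was 19.4 to 23.9 CPM in EpiLC, 15.4 to 17.8 CPM in aEpiLC and 6.40 to 10.6 CPM in pEpiLC, and the defining marker Cdh5 had 0 to 3 counts in each library. Outside pEpiLC replicate 1, Pecam1 and Tek made up most of the sum. They did not run together, Pecam1 having mean levels of 12.2, 1.76 and 1.77 CPM in EpiLC, aEpiLC and pEpiLC and Tek of 7.16, 13.7 and 3.35 CPM. In pEpiLC replicate 1 the largest part was Kdr, at 4.64 CPM beside 0.307 and 0.233 CPM in the other pEpiLC libraries. The part of these markers in the level of Cldn5 was not tested.

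Ocln (ENSMUSG00000021638, minus strand, chr13:100496507-100552718) encodes occludin, which helps to regulate the passage of large molecules through the junction. Its level was 17.0, 15.4 and 11.3 CPM in EpiLC, 20.7, 25.2 and 20.9 CPM in aEpiLC and 4.26, 15.3 and 14.9 CPM in pEpiLC. The aEpiLC libraries were the highest, and 2 of the pEpiLC libraries lay within the range of EpiLC. Ocln differed by a log2 fold change of 0.60 (SE 0.14, adjusted p = 0.00311, edgeR) in aEpiLC against EpiLC and -0.97 (SE 0.40, adjusted p = 0.150) in pEpiLC against aEpiLC, or -0.57 (adjusted p = 0.00560) without pEpiLC replicate 1. Against EpiLC the pEpiLC value was -0.34 with all libraries and turned to 0.05 without replicate 1.

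F11r and Tjp1 varied least. F11r (ENSMUSG00000038235, plus strand, chr1:171437535-171464603) encodes an immunoglobulin-like adhesion molecule that helps to place polarity proteins at forming junctions. It had 59.9, 51.8 and 59.3 CPM in EpiLC, 69.8, 69.7 and 73.7 CPM in aEpiLC and 58.9, 60.8 and 61.5 CPM in pEpiLC. Only the aEpiLC libraries formed a separate range, with a log2 fold change of 0.30 (SE 0.07, adjusted p = 0.00320, edgeR) against EpiLC. In pEpiLC it was -0.25 (SE 0.06, adjusted p = 0.0391) against aEpiLC, past the p limit with all libraries but not without pEpiLC replicate 2 or 3 or any aEpiLC replicate (adjusted p between 0.0947 and 0.125). Against EpiLC it was 0.08, with an interval of 2 standard errors from -0.07 to 0.23. Of the stretches of 50 bases in its transcripts, 0.83% also occur in transcripts of other genes, and for the other 8 members none do.

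Tjp1 (ENSMUSG00000030516, minus strand, chr7:65296165-65527781) encodes the zonula occludens scaffold that binds claudin tails and nucleates the strands. It stood at 218, 197 and 211 CPM in EpiLC, 267, 257 and 226 CPM in aEpiLC and 199, 229 and 221 CPM in pEpiLC. The aEpiLC libraries were above those of EpiLC, while pEpiLC overlapped with both. The log2 fold change was 0.25 (SE 0.07, adjusted p = 0.0108, edgeR) in aEpiLC against EpiLC and -0.22 (SE 0.09, adjusted p = 0.131) in pEpiLC against aEpiLC. Against EpiLC, pEpiLC was at 0.05, with an interval of 2 standard errors from -0.08 to 0.18, so these data bound the difference to a small one without showing that there is none.

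Levels of different genes can be set beside each other only per length of transcript, here as CPM per kilobase of annotated exon. In EpiLC, Cldn6 was first at 107 ± 2.82 CPM per kb (SD, n = 3), followed by Cldn4 at 33.9 ± 0.707 and Cldn7 at 32.5 ± 2.26, whose ranges overlapped. Tjp1 came next at 26.7 ± 1.36, then F11r at 21.4 ± 1.69, Cldn3 at 9.61 ± 1.40, Ocln at 3.45 ± 0.695, Cldn9 at 1.95 ± 0.255 and Cldn5 at 1.14 ± 0.169 CPM per kb, none of these neighbours overlapping. In pEpiLC, Cldn4 at 13.7 ± 1.60 CPM per kb was below F11r at 22.7 ± 0.510 and Tjp1 at 27.7 ± 1.97 in every library, whereas in EpiLC it was above both.

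The make-up of RNA from the 6 member claudins is described without a test. Summed over these 6, the level was 186 ± 2.13 CPM per kb in EpiLC and 257 ± 3.22 in aEpiLC (SD, n = 3), and in pEpiLC it was 61.0, 149 and 149 CPM per kb in replicates 1, 2 and 3. The sums of the states did not overlap. Cldn6 made up 57.5% ± 1.95 of the sum in EpiLC, 53.5% ± 2.28 in aEpiLC and 64.3% ± 1.86 in pEpiLC. The share of Cldn4 was 18.2% ± 0.261 in EpiLC and 19.99% ± 1.67 in aEpiLC, and in pEpiLC it was 20.2%, 8.99% and 10.3%. In pEpiLC replicate 1 Cldn6 and Cldn7 were low alongside Cldn4, so its share of Cldn4 was like that of EpiLC although its level was not. Cldn12, a further claudin outside the 6 and so outside the sum, was at 37.4 to 40.2 CPM in EpiLC, 43.5 to 45.996 CPM in aEpiLC and 50.3 to 56.1 CPM in pEpiLC, with no overlap between the states. It was at 0.42 on the log2 scale in pEpiLC against EpiLC (adjusted p = 0.00370, edgeR), below the fold limit, and at 0.23 (adjusted p = 0.0850) against aEpiLC. Cldn3 made up 8.66% ± 1.17 of the sum in aEpiLC and 5.16% ± 0.737 in EpiLC.

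**Figure D3:**
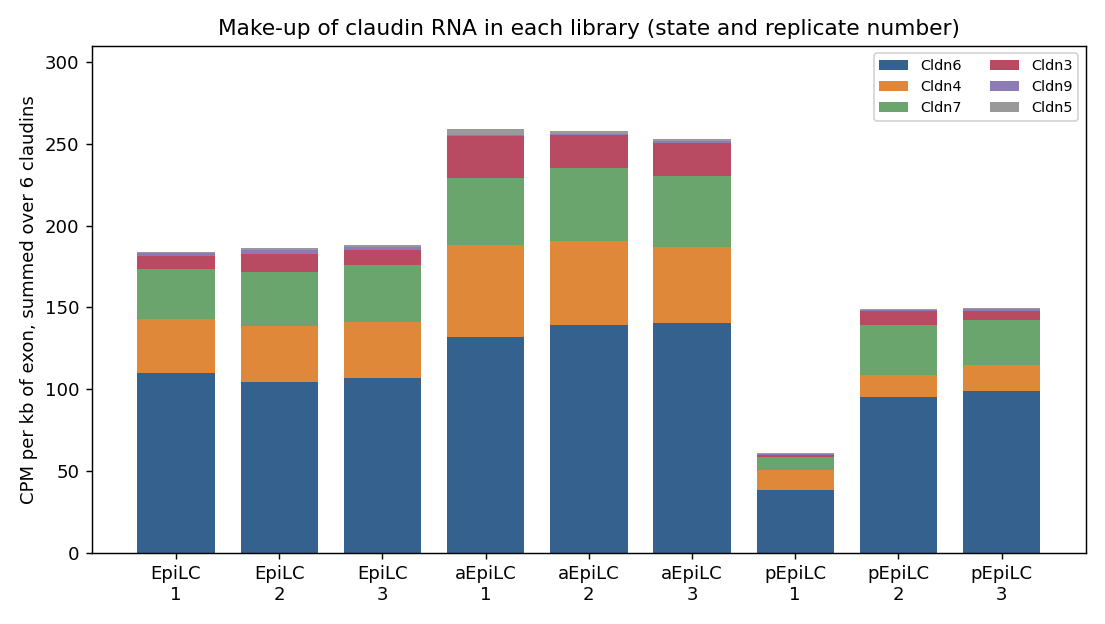
Stacked bars of the 6 claudins in each library, in CPM per kb of annotated exon on a linear axis from 0. The 3 aEpiLC bars are the tallest, at a mean of 257, and pEpiLC replicate 1 is the shortest at 61.0, with Cldn6 the largest segment in every bar.

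Other genes of the tight junction were read from a list of 65, of which 56 are in the table and 44 were tested in pEpiLC against aEpiLC. Of these, 8 fell and 1 rose in pEpiLC, with a median log2 fold change of -0.30 against 0.01 for all genes, of which 4.74% were called lower and 7.29% in all. Those that fell encode the claudin Cldn1, the tricellulin-family proteins Marveld2 and Marveld3, the angulin Ildr2, the polarity protein Crb1, the junction plaque proteins Cgn (cingulin) and Cgnl1 (paracingulin), and the angiomotin-family scaffold Amotl2. Cgnl1 was the clearest, at 180, 232 and 183 CPM in aEpiLC and 66.4, 74.3 and 59.7 CPM in pEpiLC, a log2 fold change of -1.58 (SE 0.12, adjusted p = 0.000334, edgeR). Cldn1, a claudin of the skin barrier, had 1.92, 2.89 and 4.23 CPM in aEpiLC and 0.479, 0.833 and 1.07 CPM in pEpiLC, again without overlap, with a log2 fold change of -1.93. Amot, also an angiomotin, was the gene that rose, and its pEpiLC libraries ranged from 75.9 to 421 CPM with the highest in replicate 1, against 25.3 to 37.8 CPM in aEpiLC. Without pEpiLC replicate 1, 6 of 45 genes fell, beside 7.41% of all genes called in either direction. Marveld2, Cgn and Ildr2 were then below the fold limit and Crb3 was added. Amot still rose, by a log2 fold change of 1.41 in place of 2.63. Without aEpiLC replicate 1, 2 or 3, the genes called in all were 4, 2 and 4 in place of 9.

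In aEpiLC against EpiLC, 8 of 43 tested genes of the same list rose and none fell by the call rule, while 24 were higher and 4 lower at an adjusted p below 0.05 alone (edgeR). Over all genes 7.25% were called higher, and 46.6% passed the p limit alone. The 8 were Cldn1, Crb1, Crb2, Jam3, Marveld2, Amotl1, Mpdz and Pard3b. Mpdz, a many-PDZ scaffold, went from a mean of 38.6 CPM to 85.8 CPM, a log2 fold change of 1.14 (SE 0.08, adjusted p = 1.45e-07), and Jam3, an adhesion molecule related to F11r, from 15.9 to 34.1 CPM. The list's median was 0.31 against 0.00 for all genes. In pEpiLC against EpiLC, 4 rose (Amot, Crb2, Jam2 and Magi2) and 2 fell (Marveld3 and Tjp3) beside 15.8% of all genes called. Again 2 fell without pEpiLC replicate 1, Tjp3 and Arhgef2, the last in place of Marveld3, beside 15.4% of all genes called in either direction. Without EpiLC replicate 2 or 3, 3 genes were called and all were higher, so neither falling call was kept. The median with all libraries was -0.12 against 0.02.

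**Figure D4:**
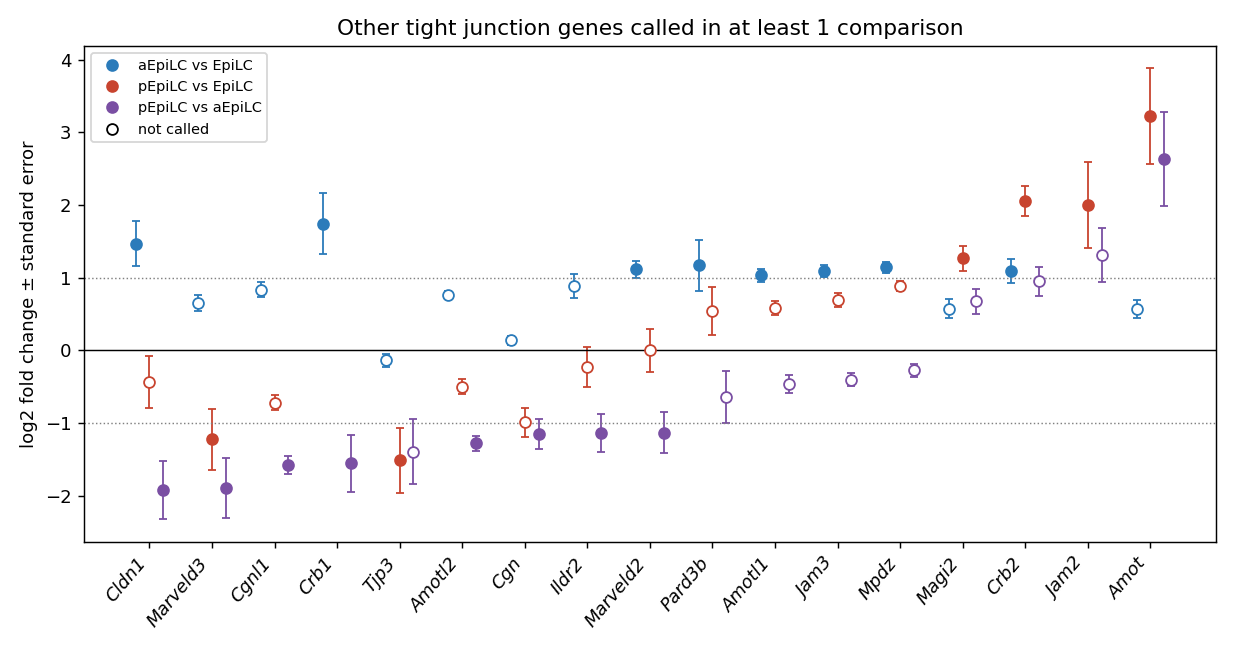
Log2 fold change with its standard error (edgeR) of the other tight junction genes called in at least 1 comparison, filled where called, with dotted lines at the fold limit. Cldn1, Marveld3 and Cgnl1 lie lowest in pEpiLC against aEpiLC, and Amot lies highest in both comparisons of pEpiLC.

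Tjp3 encodes a scaffold of the same family as that of Tjp1. It was at 25.7 to 30.5 CPM in EpiLC, 24.6 to 28.3 CPM in aEpiLC and 3.11, 12.4 and 14.6 CPM in pEpiLC, a log2 fold change of -1.51 (SE 0.45, adjusted p = 0.0281, edgeR) in pEpiLC against EpiLC, or -1.09 (adjusted p = 1.36e-06) without pEpiLC replicate 1. The call of Tjp3 with all libraries was lost without EpiLC replicate 2 or 3. For Tjp1 the value in pEpiLC against EpiLC, 0.05, was given above, and the difference between the pair was not tested.

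Other junction genes were read in pEpiLC replicate 1 in the same way. Of 38 other tight junction genes with a mean of at least 5 CPM, 7 were below both other pEpiLC libraries by more than 1.5 times in pEpiLC replicate 1 (Marveld2, Marveld3, Ildr1, Crb3, Tjp3, Cgn and Pard6b), beside 5.82% of all genes, and Amot was above both. Of 26 adherens junction and epithelial genes at that level, 8 were likewise low (Nectin2, Epcam, Krt18, Esrp2, Grhl1, Grhl2, Rab25 and Pkp2) and Dsp was high. Tjp3, Crb3 and Marveld3 were at 23.1%, 22.8% and 26.2% of the mean of the other 2 libraries. Cgnl1, Mpdz and Pard3 were at 99.1%, 103% and 101%, as F11r was at 96.3%, so not all junction genes were low in it. The same library had the highest Snai1, at 64.8 CPM beside 15.0 and 13.8 CPM in the other pEpiLC libraries.

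**Figure D5:**
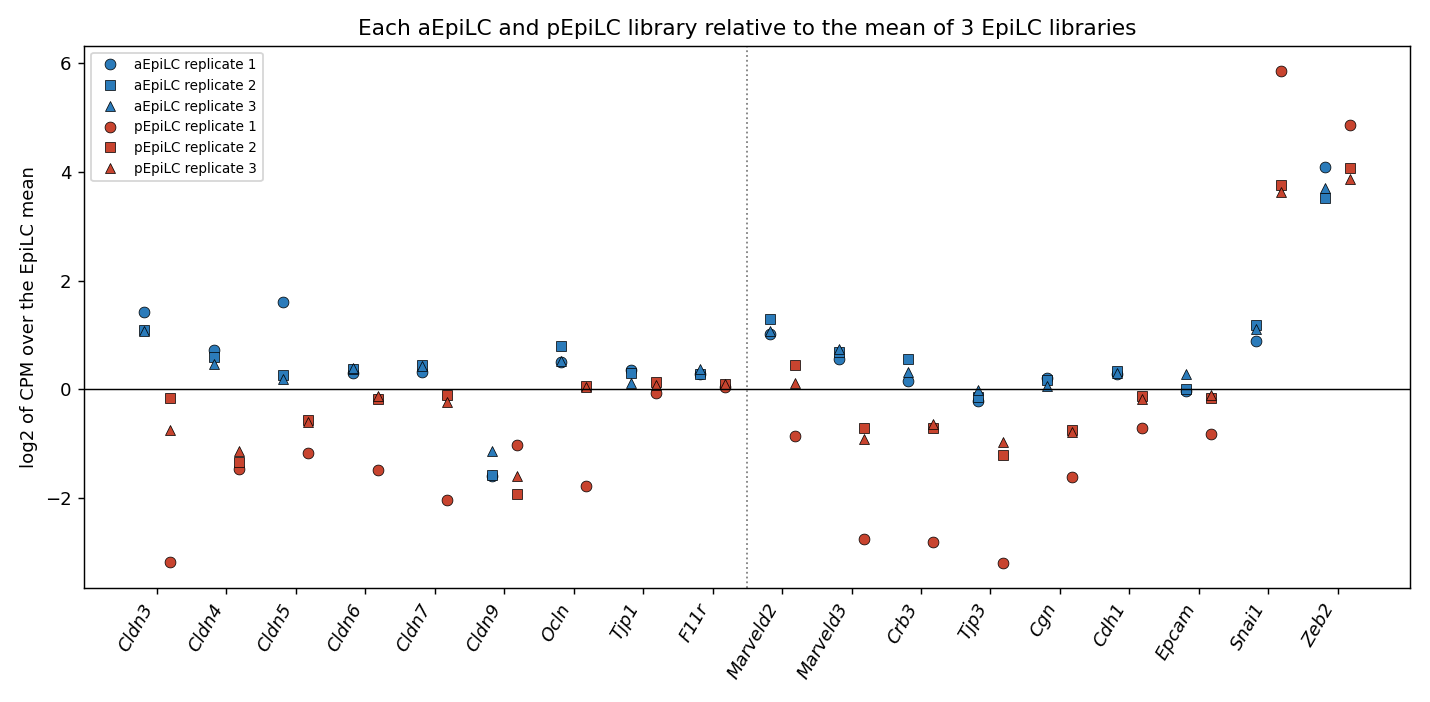
Log2 of the CPM of each aEpiLC and pEpiLC library over the EpiLC mean, for the 9 members (left of the dotted line) and for other junction genes and the repressors Snai1 and Zeb2 (right). In pEpiLC replicate 1 (red circle) Cldn3, Cldn7, Ocln, Marveld3, Crb3 and Tjp3 are lowest and Snai1 is highest.

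Of 5 repressors tested, Snai1, Zeb2 and Twist1 rose in both comparisons with EpiLC, beside 7.25% and 7.71% of all genes called higher, and the other 2 were not called. In pEpiLC against aEpiLC only Snai1 was called. Snai1, which represses claudin and cadherin genes in epithelial-mesenchymal transition, had 0.647 to 1.44 CPM in EpiLC, 2.06 to 2.53 CPM in aEpiLC and 13.8 to 64.8 CPM in pEpiLC. It rose by a log2 fold change of 3.74 (SE 0.66, adjusted p = 0.0105, edgeR) in pEpiLC against aEpiLC, or 2.62 without pEpiLC replicate 1. Zeb2, a zinc finger repressor of the same kind, had 0.465 to 1.00 CPM in EpiLC, 8.998 to 13.3 CPM in aEpiLC and 11.5 to 22.8 CPM in pEpiLC. Zeb2 rose by 3.76 on the log2 scale in aEpiLC and by 4.32 in pEpiLC. Twist1, a helix-loop-helix factor, rose by 1.03 and 1.12, the last no longer called without pEpiLC replicate 1 (0.81, adjusted p = 0.0607, edgeR). The part these levels play in those of the junction genes was not tested.

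The form of the E-box that the repressors of Snai1 and Zeb2 are known to bind is shown because most members hold it near their start. In windows from 250 bases before to 50 after each RefSeq start (GRCm38.p6), CAGGTG on either strand (CACCTG when it lies on the other) was found in 6 of the 8 members with a window, against 22.6% of 27025 genes, or in 7 of their 10 windows against 20.2% of 32851, and at 10 places in all. The 2 windows of Ocln overlap, and its motif 7 bases after the first start lies in both, so these windows are not separate. Cldn9 has no entry. Tjp1, Cldn5 and the first of the starts of Cldn7 have no match. Positions are counted from the start site, and the motif is in capitals, written along the strand of the gene.
Cldn4, 14 bases before the start, chr5:134946931-134946960, minus strand: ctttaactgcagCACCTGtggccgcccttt
Cldn4, 11 bases after the start, chr5:134946906-134946935, minus strand: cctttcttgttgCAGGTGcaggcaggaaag
Cldn3, 31 bases after the start, chr5:134986233-134986262, plus strand: caaagccacaggCAGGTGcaggggcagtct
Cldn6, 93 bases before the start, chr17:23679260-23679289, plus strand: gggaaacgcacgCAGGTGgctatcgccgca
Cldn6, 40 bases after the start, chr17:23679393-23679414, plus strand: cagtctcttttgCAGGTGagcc
Cldn7, 97 bases before the second start, chr11:69965312-69965341, plus strand: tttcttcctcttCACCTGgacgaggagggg
Cldn7, 57 bases before the second start, chr11:69965352-69965381, plus strand: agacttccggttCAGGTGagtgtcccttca
Ocln, 7 bases after the first start, chr13:100552694-100552723, minus strand: ccatcggagtttCAGGTGaatgggtcaccg
Ocln, 68 bases before the second start, chr13:100552549-100552578, minus strand: ctaggggctcggCAGGTGggtcccagcgca
F11r, 122 bases before the start, chr1:171437427-171437456, plus strand: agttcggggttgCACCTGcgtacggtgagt

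By GENCODE, whose transcripts can begin upstream of the RefSeq start, the motif of F11r and the upstream motif of Cldn4 lie outside the gene, and the other 8 lie in a UTR of at least 1 transcript of the gene. A match in these letters is a description of the sequence and says nothing about binding. Since Cldn4 was called in pEpiLC against both other states, the 250 bases before its start are given whole, chr5:134946935-134947184 on the minus strand, with the motif next to the start in capitals.
Cldn4 upstream region: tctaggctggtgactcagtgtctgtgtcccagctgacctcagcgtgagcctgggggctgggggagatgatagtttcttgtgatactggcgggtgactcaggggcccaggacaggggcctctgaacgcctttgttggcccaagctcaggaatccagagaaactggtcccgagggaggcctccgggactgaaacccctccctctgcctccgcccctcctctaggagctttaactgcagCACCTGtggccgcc

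Genes of adherens junctions and epithelial identity were read beside the members from a list of 31, all tested. In pEpiLC against aEpiLC, 5 fell, among them Krt7, Krt8, Krt18 and Rab25, and none rose, with a median log2 fold change of -0.47, beside 4.74% of all genes called lower. Without pEpiLC replicate 1, again 5 fell and none rose, with a median of -0.46, beside 7.41% of all genes called in either direction. Cdh1, the E-cadherin of the epiblast, was at 847 to 894 CPM in EpiLC, 1065 to 1108 CPM in aEpiLC and 537, 803 and 775 CPM in pEpiLC, a log2 fold change of -0.63 (SE 0.14, adjusted p = 0.0231, edgeR) against aEpiLC, below the fold limit, and -0.46 (adjusted p = 0.000365) without pEpiLC replicate 1. In aEpiLC against EpiLC, 7 rose and none fell by the call rule (18 were higher and 1 lower at an adjusted p below 0.05 alone), beside 7.25% of all genes called higher and 46.6% past the p limit, among them the keratin Krt8 by 2.22 and the desmosomal gene Perp by 2.28 on the log2 scale. In pEpiLC against EpiLC, Dsp, Perp and Krt19 rose and the epithelial regulators Grhl1, Esrp2 and Ovol2 fell, 3 of 31 in each direction beside 7.71% of all genes called higher and 8.13% called lower. Of these, Krt19, Esrp2 and Ovol2 were below the fold limit without pEpiLC replicate 1. Krt8 and Cldn4, both lower in pEpiLC than in aEpiLC, lay on opposite sides of EpiLC in pEpiLC, Krt8 at 0.93 and Cldn4 at -1.31.

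Markers of other cells moved with the states as well, and their part in the levels above was not tested. Over 8 epiblast markers the summed level was 5055 to 5374 CPM in EpiLC, 5017 to 5230 in aEpiLC and 2426 to 3807 in pEpiLC. Dnmt3b had the largest part in this difference, with mean levels of 2670, 2519 and 1256 CPM in EpiLC, aEpiLC and pEpiLC, and Utf1 (464, 318 and 76.9 CPM) and Pou3f1 (202, 203 and 32.5 CPM) were also lower in pEpiLC, while Fgf5 was higher (84.5, 115 and 169 CPM) and Lin28a was at 444, 607 and 456 CPM. The remaining markers were Pou5f1 at 1116, 936 and 962 CPM, Otx2 at 93.9, 144 and 70.5 CPM and Sall4 at 180, 256 and 204 CPM. Over 8 markers of definitive endoderm the summed level was 10.01 to 12.7, 43.3 to 87.4 and 161 to 214 CPM in the same order, with Cer1 and Gsc at the detection limit in EpiLC and aEpiLC. Trh alone made up most of the aEpiLC sum, at 85.2, 48.1 and 39.97 CPM, and most of that in pEpiLC replicates 2 and 3, at 157 and 114 CPM. In pEpiLC replicate 1 Trh was at 13.1 CPM, and Gsc at 84.1 and Foxa2 at 63.1 CPM made up most of the sum. Over the 7 trophoblast markers in the table it was 10.2 to 11.4, 9.72 to 13.4 and 223 to 393 CPM, with Elf5 at the limit in every state. Most of the pEpiLC sum was Eomes, which also marks the primitive streak, at 382, 241 and 219 CPM in replicates 1, 2 and 3, while Cdx2 was at 0.931 to 6.99 CPM, Hand1 and Gata3 were below 1 CPM, and Ascl2 was lower than in EpiLC in each library. Over 5 markers of visceral endoderm it was 10.8 to 11.1, 15.1 to 17.1 and 7.78 to 19.8 CPM. Surface ectoderm (8 markers) lay between 1.16 and 14.2 CPM. Both the highest of these values and the 19.8 CPM of visceral endoderm came from pEpiLC replicate 1, with Wnt6 at 12.7 CPM there (1.49 and 2.75 CPM in the other pEpiLC libraries) and Gata4 at 12.4 CPM (0.438 and 0.326 CPM). Fibroblast markers (6 genes) lay between 16.7 and 30.1 CPM in all 9 libraries, the highest in pEpiLC replicate 1. Their parts moved in opposite directions. Dcn was at 4.75 to 7.18 CPM in EpiLC and 0.186 to 0.307 CPM in pEpiLC. Col1a2 was at 1.31 to 1.94 CPM in EpiLC and 4.21 to 10.2 CPM in pEpiLC.

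The genes whose levels followed each called member most closely were found among 10731 genes of at least 5 CPM, by Pearson's r of log2 CPM over the 9 libraries. For Cldn3 they were Rab39b (r = 0.990), Cdh1 (0.987) and Vwa2 (0.986). For Cldn4 they were Tmem131l (0.993), A930004D18Rik (0.991) and Pcnx2 (0.990), the last with mean levels of 7.003, 12.3 and 2.28 CPM in EpiLC, aEpiLC and pEpiLC. For Cldn9 they were Scpep1 (0.986), Dhx16 (0.978) and Parp12 (0.968), each higher in EpiLC than in both later states. The 9 libraries form 3 states, so such values mostly restate the means of the states.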

How the data were processed

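The authors sequenced the libraries as 150 bp paired-end reads, mapped them to GRCm38 with STAR 2.7.9a and deposited RSEM 1.3.1 expected counts per gene symbol, without normalization. Strandedness, read cleaning and the annotation are not given in the sources used here. Expected counts were rounded to whole numbers. With R 4.3.3 and edgeR 4.0.16, TMM, filterByExpr and the quasi-likelihood test were run for each pair of states on the 6 libraries concerned, with calls at adjusted p below 0.05 and a log2 fold change of 1 or more in size. The procedure was tested on simulated data. CPM are TMM-scaled over the 9 libraries, with a prior count of 2 on the log2 scale for correlations. Positions and exon lengths came from GENCODE vM21 and start sites from RefSeq. Groups came from the sample titles.

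The members and the gene lists were chosen with earlier results of these data known. The text names the 9 members, the called genes of the other junction and repressor lists, and the 3 genes with the highest r for each member called. Cgnl1, Mpdz, Jam3, Tjp3, Cdh1 and the genes low in pEpiLC replicate 1 were singled out after their values were seen. Some genes of the lists are counted but not reported here by name. Alternatives were RLE size factors, DESeq2 1.42.0, the likelihood ratio test, no filter, at least 10 counts in every library, all 9 libraries in a joint fit, the replicate number as a block, no limit on fold change, and leaving out each replicate.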

Additional observations from a re-analysis of the deposited data

Results flagged for a closer look

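The change from EpiLC differed between the later states for Cldn3 and Cldn4 by the test of that difference, in which the shared EpiLC libraries cancel so that it is the comparison of pEpiLC with aEpiLC. For Cldn3 the change in pEpiLC minus that in aEpiLC was -2.12 on the log2 scale (adjusted p = 0.0404, edgeR), with all 3 pEpiLC libraries below all 3 of aEpiLC, and -1.63 without pEpiLC replicate 1. It was past both limits in 9 of 13 alternatives, with adjusted p up to 0.131, and lost without pEpiLC replicate 3 or any aEpiLC replicate. For Cldn4 it was -1.91 (adjusted p = 0.000119), again in all 3 libraries, and -1.84 without that replicate.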

How the results depend on the processing

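The calls of Cldn4 (pEpiLC against both other states) and Cldn9 (both later states against EpiLC) held in 13 of 13 alternatives. The call of Cldn3 in pEpiLC against aEpiLC held in 9 of 13 and was lost without pEpiLC replicate 3 (adjusted p = 0.0887) or aEpiLC replicate 1 (0.131), 2 (0.117) or 3 (0.114), with adjusted p between 4.65e-05 and 0.131 in all. Its call in aEpiLC against EpiLC was lost in a joint fit of 9 libraries (adjusted p = 0.0650), which pools the spread of pEpiLC. Cldn5 was called in pEpiLC against aEpiLC in 6 of 13. Signs turned for Cldn9 in pEpiLC against aEpiLC without pEpiLC replicate 2 (0.13) and aEpiLC replicate 3 (0.10), where the range over left-out replicates was -0.34 to 0.13, and for Ocln in pEpiLC against EpiLC without pEpiLC replicate 1, where it was -0.61 to 0.052. The cause was not tested.

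Leaving out a replicate gave 1 to 3 members called in pEpiLC against aEpiLC (0 higher, 1 to 3 lower), 2 to 3 in aEpiLC against EpiLC (1 to 2 higher, 1 lower) and 2 in pEpiLC against EpiLC. The member count was 1 without pEpiLC replicate 3 or any aEpiLC replicate. Other tight junction genes called ranged from 2 to 10 (0 to 2 higher, 2 to 8 lower), 6 to 9 (5 to 9 and 0 to 1) and 3 to 8 (3 to 4 and 0 to 4) in the same order, and all genes from 514 to 1148 (180 to 419 and 334 to 759), 1861 to 1969 and 1989 to 2565. The counts over all genes in pEpiLC against aEpiLC were 648, 514 and 583 without aEpiLC replicates 1, 2 and 3, and 3 other tight junction genes were called in pEpiLC against EpiLC without EpiLC replicate 2 or 3. With no limit on fold change, the members called in aEpiLC against EpiLC were 8 (7 higher). The other tight junction genes were then 18 (3 higher, 15 lower), 28 (24 and 4) and 25 (12 and 13), and all genes 2369 (955 and 1414), 7130 (3676 and 3454) and 6759 (3481 and 3278). The joint fit gave 1 member called in aEpiLC against EpiLC (0 higher) and 4 other tight junction genes lower in pEpiLC against EpiLC. The likelihood ratio test gave 2 other tight junction genes higher in pEpiLC against aEpiLC. With at least 10 counts in every library, 1259 genes were called in aEpiLC against EpiLC (488 lower) and 801 lower in pEpiLC against EpiLC, as fewer genes were tested.

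Replicate numbers were not taken to pair the samples, since not every same-numbered correlation was over 0.1: correlations of same-numbered deviations were 0.172, 0.117 and 0.0621 in pEpiLC against aEpiLC and between -0.0601 and 0.0336 in the others, and every sample correlated best with its own number in pEpiLC against aEpiLC but not in the other comparisons. With the replicate block, 2 members were called in each comparison, with 1123, 1878 and 2299 genes in all, and Cldn3 in pEpiLC against aEpiLC was at -2.32 (adjusted p = 0.0466), while F11r in that comparison no longer passed the p limit (adjusted p = 0.0598). Cldn9 and Cldn5, with 15 to 105 counts per library, were the members that depth limits most.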
